A study of Mus musculus with 3 samples.

Results

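The genes described here are 10 transcripts of the integrated stress response: Atf4, Atf5, Atf3, Ddit3, Trib3, Chac1, Asns, Psat1, Sesn2 and Ddit4. They were chosen by name, as the probes whose gene name in the scanner files is one of the 10, which gave 12 probes out of 55680 and 10 genes out of 22328. Mouse cerebral cells from C57BL6/J embryos at embryonic day 18, grown in a serum-free neuronal medium, were exposed on day 10 in vitro for 24 h. One culture received 1 mM valproate with 0.1% DMSO, another 100 µM lamotrigine with 0.1% DMSO, and the control 0.1% DMSO alone, so the solvent was common to all 3. RNA of each was hybridised to 1 single-colour Agilent array, and the labels do not say how many embryos or dishes an RNA sample held.

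When amino acids run short, unfolded protein accumulates in the endoplasmic reticulum, haem is lacking or viral RNA is present, dedicated kinases phosphorylate the translation factor eIF2α. General protein synthesis then slows while the messenger RNA of the transcription factor ATF4 is translated more efficiently, and ATF4 raises genes for amino acid supply and for adaptation or death. ATF4 is controlled largely by translation, so its messenger RNA is only part of its regulation. Valproate is a branched-chain fatty acid used against epilepsy that also blocks histone deacetylases, and lamotrigine is an antiepileptic blocker of sodium channels.

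ATF4 binds, with C/EBP proteins, to a composite element that joins a C/EBP part and an ATF part. Its core was searched as TGATGNAA, or TTNCATCA on the other strand, in the 300 bases of each RefSeq promoter on GRCm38.p6, from 250 before to 50 after the gene start. All 10 genes had an entry there, with 12 windows in all, and 4 genes held a match, namely Atf3, Trib3, Chac1 and Asns. Over all 27025 genes with a promoter entry the share with a match was 4.51%. Of the genes described below as highest with DMSO, Trib3, Chac1 and Asns held a match and Atf5, Atf4 and Ddit3 did not. A link between a match and the levels was not tested. The stretches around the matches are shown here. They read 5′ to 3′ on the strand of the gene, with the match in capitals.
Chac1 (chr2:119350999-119351106, plus strand): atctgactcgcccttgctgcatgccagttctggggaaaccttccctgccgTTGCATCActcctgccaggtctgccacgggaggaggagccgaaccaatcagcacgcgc
Asns (chr6:7693210-7693282, minus strand): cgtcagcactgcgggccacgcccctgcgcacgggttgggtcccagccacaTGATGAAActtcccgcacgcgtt
Atf3 (chr1:191183386-191183493, minus strand): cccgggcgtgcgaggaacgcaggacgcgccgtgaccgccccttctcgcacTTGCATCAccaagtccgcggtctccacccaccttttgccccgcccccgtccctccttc
Trib3 (chr2:152344028-152344057, minus strand): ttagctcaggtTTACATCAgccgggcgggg
The match lies from 193 to 186 bases before the annotated start in Chac1, from 110 to 103 before it in Atf3 and from 23 to 16 before it in Asns. In Trib3 it lies just after the start, at bases 15 to 22. The stricter letters TGATGCAA, or TTGCATCA, were in the windows of Atf3 and Chac1, against 1.03% of genes. The other 6 genes had no match in these letters and this window, which says nothing about binding elsewhere.

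With 1 array per treatment no difference below has a replicate check and no test between treatments was possible. Levels are given as scaled signal, the background-corrected spot signal set so that the 75th percentile of an array is 100. The 75th percentile itself was 478 on the valproate array, 372 with DMSO and 388 with lamotrigine, no spot was saturated (0 on each), and 14506 to 15095 genes were detected. All 12 probes were well above background on all 3 arrays, and each was printed as 1 spot. The error that the scanner software gave for these spots was 10.0 to 11.1% of the signal, which makes 0.20 to 0.23 (1 SD) for a log2 difference of 2 arrays. Probes printed 10 times had a smaller spread, 0.06 to 0.18 at the levels of these genes. Both cover the measurement on the arrays and leave out differences between cultures, extractions and labelling. In RNA of a mixed culture, fewer cells of a type and less RNA per cell cannot be told apart.

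Trib3, Atf5, Chac1 and Atf4 had their highest signal in the DMSO culture. With either drug they lay below DMSO by more than 2 SD of the software's error. Ddit3 (-0.15 with valproate, -0.34 with lamotrigine) and Asns (-0.18 and -0.45) were also highest with DMSO. Among the values of Ddit3 and Asns, only that of Asns with lamotrigine lay beyond 2 SD. Trib3 was 2.44-fold lower with valproate and 2.70-fold lower with lamotrigine, and Atf5 was 2.27-fold and 1.67-fold lower. Sesn2 went the other way, 1.43-fold higher with valproate and 1.19-fold higher with lamotrigine, the latter within 2 SD of the software's error. Psat1 was within 0.03 log2 of DMSO with each drug. Both comparisons use the same DMSO array, so a difference common to the drugs and an unusual DMSO culture cannot be told apart. The genes were proposed with earlier results of these arrays known, so the values are a description.

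**Figure D1:**
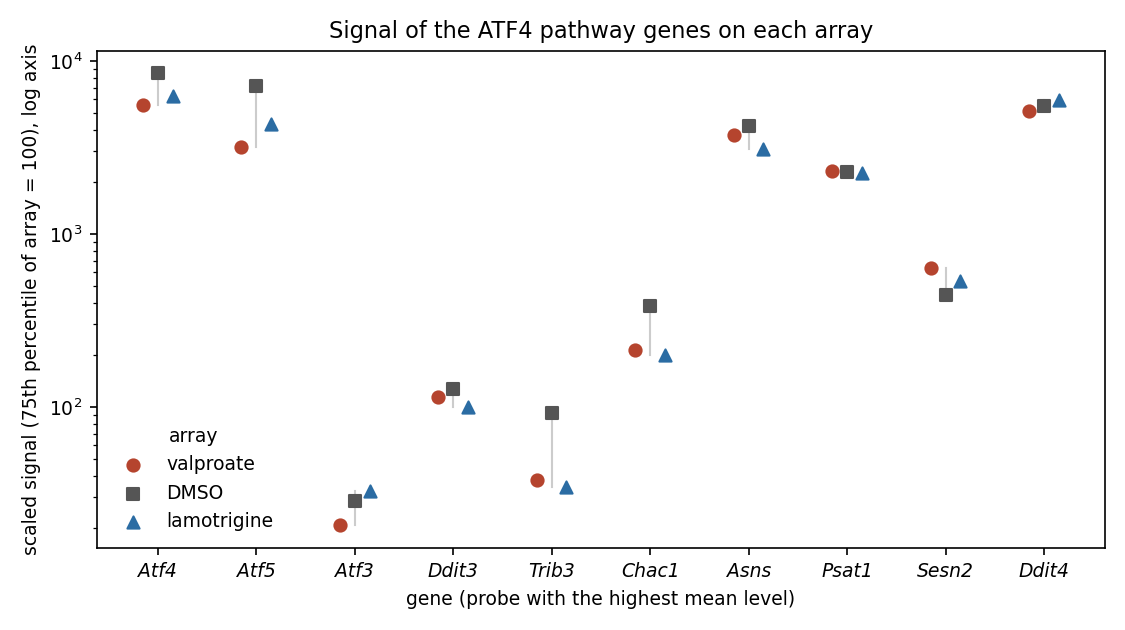
Scaled signal (log axis, 75th percentile of the array = 100) of the 10 genes on the valproate (circles), DMSO (squares) and lamotrigine (triangles) arrays, 1 point per array, with a grey line over the range of each gene. DMSO is the highest point for 6 of the 10 genes, and the points of Trib3 span 2.70-fold while those of Psat1 nearly coincide.

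Among the transcription factors, Atf4 is the regulator of the response and was measured by 2 probes on chromosome 15 (mm9). The probe at 80087902 to 80087961 read 5569 with valproate, 8469 with DMSO and 6291 with lamotrigine. The other probe, at 80086639 to 80086698, had 166, 234 and 178 in the same order. DMSO was highest and valproate lowest on both probes, and the log2 differences from DMSO were -0.60 and -0.49 with valproate and -0.43 and -0.39 with lamotrigine.

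Atf5 encodes a related factor whose messenger RNA, like that of Atf4, is translated better when eIF2α is phosphorylated. Its probe (chromosome 7, 52067627 to 52067686) had 3164 with valproate, 7197 with DMSO and 4315 with lamotrigine. The log2 difference from DMSO was -1.19 with valproate and -0.74 with lamotrigine, and Atf5 had the 119th lowest value of 14346 genes and the 43rd lowest of 14340. Valproate against lamotrigine was at -0.45, so DMSO was highest and valproate lowest, as for Atf4.

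Atf3 is induced by ATF4 and by many other stresses, and as an early-response gene by neuronal activity. It was the dimmest of the 10 genes, with a scaled signal of 20.7 with valproate, 28.5 with DMSO and 32.6 with lamotrigine (chromosome 1, 192994547 to 192994606). It lay below DMSO with valproate (-0.46) and above it with lamotrigine (0.20), the latter within 1 SD of the software's error. The difference between the drug arrays was the farthest from 0 among the 10 genes, at -0.66.

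Ddit3 encodes CHOP, a factor downstream of ATF4 that is linked to cell death under lasting endoplasmic reticulum stress. Its probe on chromosome 10 (126732518 to 126732821, across a splice junction or junctions, since it spans more bases than a probe) had 114 with valproate, 126 with DMSO and 100 with lamotrigine. The log2 difference from DMSO was -0.15 with valproate, which turns to 0.20 with spike-in scaling, and -0.34 with lamotrigine, so DMSO was highest and lamotrigine lowest as reported.

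Trib3 is a pseudokinase induced by ATF4 and CHOP that restrains ATF4 activity and the kinase AKT. Its probe (chromosome 2, 152163161 to 152163220) had 37.8 with valproate, 92.1 with DMSO and 34.2 with lamotrigine. Both drug arrays lay far below DMSO and near each other. The log2 difference was -1.28 with valproate, the 89th lowest of 14346 genes, and -1.43 with lamotrigine, the 4th lowest of 14340.

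Chac1 encodes an enzyme that degrades glutathione and is a target of ATF4. Its scaled signal was 213 with valproate, 382 with DMSO and 199 with lamotrigine (chromosome 2, 119179990 to 119180049). As for Trib3, DMSO stood above both drug arrays, which were alike. The differences from DMSO were -0.84 and -0.94, and the second was the 13th lowest of 14340 genes.

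Among the genes of amino acid supply, Asns, which makes asparagine, had 3708 with valproate, 4186 with DMSO and 3074 with lamotrigine (chromosome 6, 7625171 to 7625228). It was at -0.18 with valproate, which turns to 0.17 with spike-in scaling, and at -0.45 with lamotrigine. Psat1, an aminotransferase of serine synthesis, had 2300 with valproate, 2283 with DMSO and 2262 with lamotrigine on 1 probe of chromosome 19 (15979622 to 15979681). The other Psat1 probe (15991586 to 15991645) had 157, 154 and 152. No array stood apart for Psat1 on either probe, and its differences from DMSO were 0.01 and 0.03 with valproate and -0.01 and -0.02 with lamotrigine.

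Sesn2 and Ddit4 encode proteins that dampen the growth kinase complex mTORC1, and both also answer to signals other than ATF4, among them p53 for Sesn2 and hypoxia and glucocorticoids for Ddit4. Sesn2 had 635 with valproate, 445 with DMSO and 531 with lamotrigine (chromosome 4, 132048858 to 132048917). DMSO was the lowest array for Sesn2 and for no other of the 10 genes, at differences of 0.51 and 0.25. Ddit4 had 5145 with valproate, 5512 with DMSO and 5970 with lamotrigine (chromosome 10, 59412486 to 59412545). The difference was -0.10 with valproate, which turns positive with quantile normalization, spike-in scaling and the authors' deposited table, and 0.12 with lamotrigine.

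**Figure D2:**
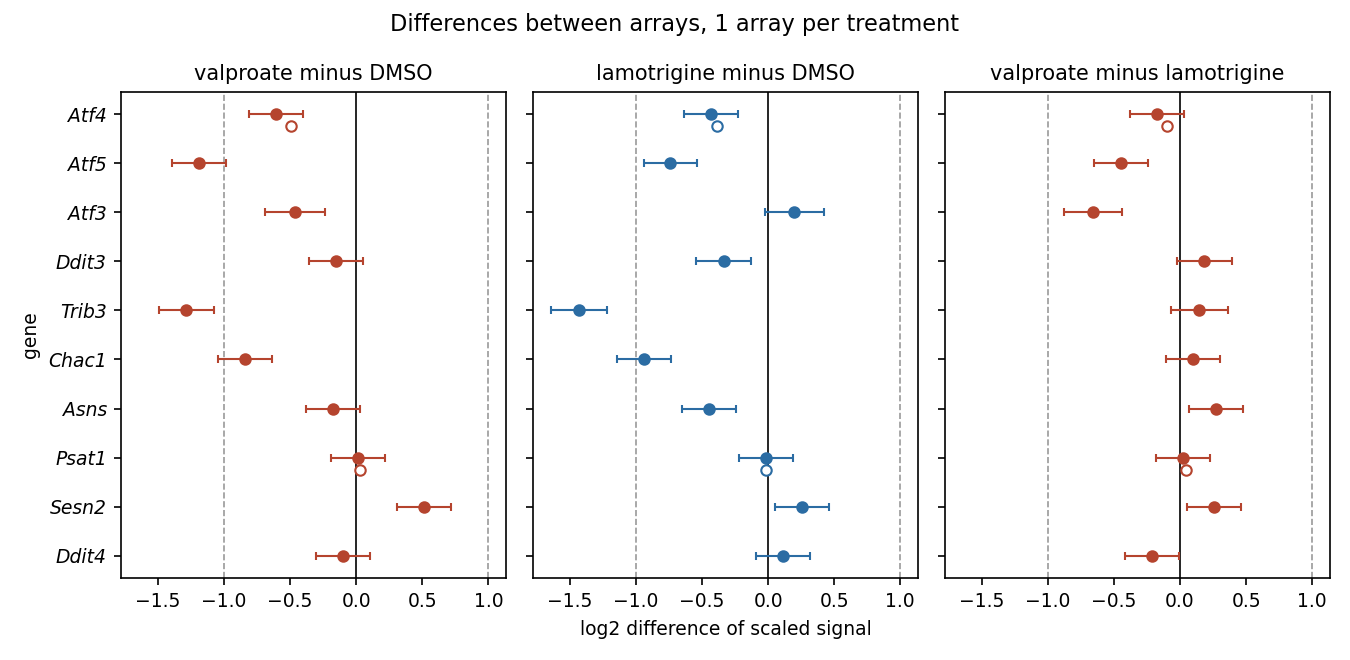
Log2 difference of scaled signal (horizontal axis) for each of the 10 genes in the 3 comparisons, with bars of 1 SD from the scanner software's spot errors and dashed lines at 2-fold. Open circles are the second probes of Atf4 and Psat1. Trib3 lies beyond the lower dashed line with either drug, Atf5 with valproate alone, and no gene lies beyond one between the drugs.

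Counted together, 2 of the 10 genes (Trib3 and Atf5) were at least 2-fold lower with valproate, 0 were at least 2-fold higher and 8 lay between. Over the 14346 genes that both arrays detected, 1.42% passed 2-fold downward and 2.09% upward. With lamotrigine 1 gene (Trib3) was at least 2-fold lower, 0 were higher and 9 lay between, against 0.0628% and 0.0976% of 14340 genes. At 1.5-fold, 4 genes were lower with valproate and 3 with lamotrigine, where the shares over all genes were 5.95% and 0.76%. Because these contrasts were known when the genes were chosen, nothing is read from these shares. The median difference of the 10 genes was -0.32 with valproate, beside -0.08 over all genes, and -0.38 with lamotrigine, beside -0.05.

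Whether the drugs differed from DMSO alike was read from the difference between the drug arrays, in which the DMSO array has no part. Its median over the 10 genes was 0.06, beside -0.03 over all genes. None of the 10 genes (0) was 2-fold apart between the drugs, against 3.75% of 14544 genes, and 1, Atf3, was 1.5-fold apart, against 12%. Among 10 genes such shares allow counts this low, so nothing about likeness is read from the counts. Trib3 differed by 0.15 and Chac1 by 0.10, both within 1 SD of the software's error. Beyond 2 SD of that error lay 2 genes, Atf3 (-0.66) and Atf5 (-0.45), both lower with valproate. By the smaller spread of repeated probes 7 genes lay beyond 2 SD, and Trib3, Chac1 and Psat1 did not. Asns (0.27), Sesn2 (0.26), Ddit3 (0.18), Ddit4 (-0.21) and Atf4 (-0.18) thus lay beyond the spread of repeated spots but within 2 SD of the software's error, and neither error measures how much cultures vary. For Atf4 the second probe was at -0.10, and spike-in scaling brought the first to -0.03. The same scaling brought Atf5 to -0.30, within 2 SD of the software's error, and Asns to 0.42, just beyond it. Over the alternatives Atf3 ranged from -0.66 to -0.46, the latter short of 1.5-fold but of the same sign.

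The pattern was also set against single genes detected on all 3 arrays with a scaled signal of at least 10 on each, 13369 genes in all. The gene nearest to Trib3 was Chac1, at a Euclidean distance of 0.38 over the 3 centred log2 levels, and then came Ccl17 (0.52) and Capn11 (0.53). Nearest to Atf5 were Npas4, an activity-dependent transcription factor of neurons (0.06), Dbpht2 (0.12) and Gm3693 (0.17). Npas4 had a scaled signal of 32.2 with valproate, 68.8 with DMSO and 42.7 with lamotrigine. A likeness over 3 arrays is weak, since 3 points allow few distinct patterns.

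Upstream of ATF4, none of the 4 eIF2α kinases was 1.5-fold from DMSO on its brightest probe. Eif2ak3 (PERK, the sensor of the endoplasmic reticulum) had 153 with valproate, 123 with DMSO and 114 with lamotrigine, a difference of 0.31 with valproate. Eif2ak4 (GCN2, the sensor of amino acid shortage) had 192, 197 and 179, while its 2 dimmer probes were at -0.25 and 0.34 with valproate and at -0.51 and -0.19 with lamotrigine. Eif2ak1 (HRI, the haem sensor) had 91.4, 99.3 and 92.5, and Eif2ak2 (PKR, the sensor of double-stranded RNA) had 33.7, 35.1 and 34.9. These kinases, their modulators, the phosphatase, the subunits of eIF2 and eIF2B and the separate initiation factor eIF2A (Eif2a) made a list of 19 genes. None (0) of the 19 was at least 1.5-fold from DMSO with either drug, where 12.2% of all genes were with valproate and 1.88% with lamotrigine. Dnajc3, an inhibitor of PERK, was 1.54-fold lower with valproate than with lamotrigine.

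Among 13 partners and relatives of ATF4 with a basic leucine zipper, Cebpa was 2.15-fold higher with valproate, at 35.3 against 16.4 with DMSO and 13.7 with lamotrigine. Batf3 was 1.60-fold higher with valproate than with DMSO, and 0 of the 13 were 1.5-fold lower, against 5.95% of all genes. With lamotrigine 0 were 1.5-fold from DMSO in either direction, against 1.88%. Between the drugs Fos was at -0.71 and Creb1 at 0.65, but a second Creb1 probe was at -0.45.

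Other genes of amino acid supply lay lower with lamotrigine than with DMSO by small amounts, as Asns did, on an array where 60.2% of all genes were below 0. All 12 genes of amino acid synthesis and one-carbon metabolism were below 0 with lamotrigine, with a median of -0.29 and the nearest to DMSO at -0.12, and 0 of them were 1.5-fold lower, where 0.76% of all genes were. With spike-in scaling that median was -0.09, beside 0.16 over all genes, and 10 of the 12 were below 0, Phgdh and Cth lying above it. Their median with valproate was -0.10, beside -0.08 over all genes, and turns positive with quantile normalization, spike-in scaling and the authors' deposited table. Pycr1, which makes proline, had 39.8 with valproate, 25.8 with DMSO and 17.7 with lamotrigine, and was 2.25-fold apart between the drugs. Aldh1l2 (0.65), Aldh18a1 (0.64) and Cth (0.59) were also higher with valproate than with lamotrigine.

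Of 17 measured cytosolic aminoacyl-tRNA synthetases 16 were below 0 with lamotrigine (median -0.22) and 11 with valproate (median -0.09, which spike-in scaling makes positive). Over all genes 60.2% and 60.7% were below 0, with medians of -0.05 and -0.08. With spike-in scaling 9 of the 17 were below 0 with lamotrigine. Yars was 1.54-fold lower with lamotrigine and 1.53-fold lower with valproate, and Cars was 1.53-fold lower with valproate. Among 10 amino acid transporters the medians were -0.18 with lamotrigine and -0.17 with valproate, both positive with spike-in scaling. Slc7a5, the carrier of large neutral amino acids, had 197 with valproate, 304 with DMSO and 197 with lamotrigine, but its other detected probe was at -0.11 and 0.43. Slc7a1 was 1.56-fold lower with lamotrigine. With valproate Slc1a5 was 1.94-fold higher and Slc6a9, a glycine carrier, 1.73-fold lower, each with a second probe of the same sign (1.53 and -0.77).

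Of the 23 other ATF4 targets 21 were detected, and 0 were 1.5-fold from DMSO with either drug, against 12.2% of all genes with valproate and 1.88% with lamotrigine. Their median was -0.09 with valproate, turned positive by spike-in scaling and by averaging detected probes, and 0.02 with lamotrigine, turned negative by averaging detected probes and by dropping the detection filter. Nupr1 was just short of 1.5-fold lower with valproate (-0.58) and at -0.53 with lamotrigine. Eif4ebp1, a repressor of translation, was at 0.34 with valproate and -0.54 with lamotrigine, and Bcat1 at 0.56 and -0.20. Of the 21 genes 12 were below 0 with valproate and 10 with lamotrigine. Ppp1r15a and Cebpb, among the 21, were also counted above, with the eIF2 genes and the partners of ATF4 respectively. Between the drugs Eif4ebp1 was 1.83-fold and Bcat1 1.69-fold higher with valproate. The 23 genes of the endoplasmic reticulum arm that answer to ATF6 or XBP1 had medians of 0.03 and -0.03, the latter positive under 5 of 10 alternatives. Derl3 (2.61-fold) and Sdf2l1 (1.95-fold), which serve degradation and folding in the reticulum, were higher with valproate than with DMSO. Derl3 was dim, at 29.3 with valproate, 11.2 with DMSO and 16.8 with lamotrigine, and was also above DMSO with lamotrigine (0.58). Sdf2l1 was at 0.02 with lamotrigine. Edem1 was 1.61-fold higher with valproate than with lamotrigine.

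**Figure D3:**
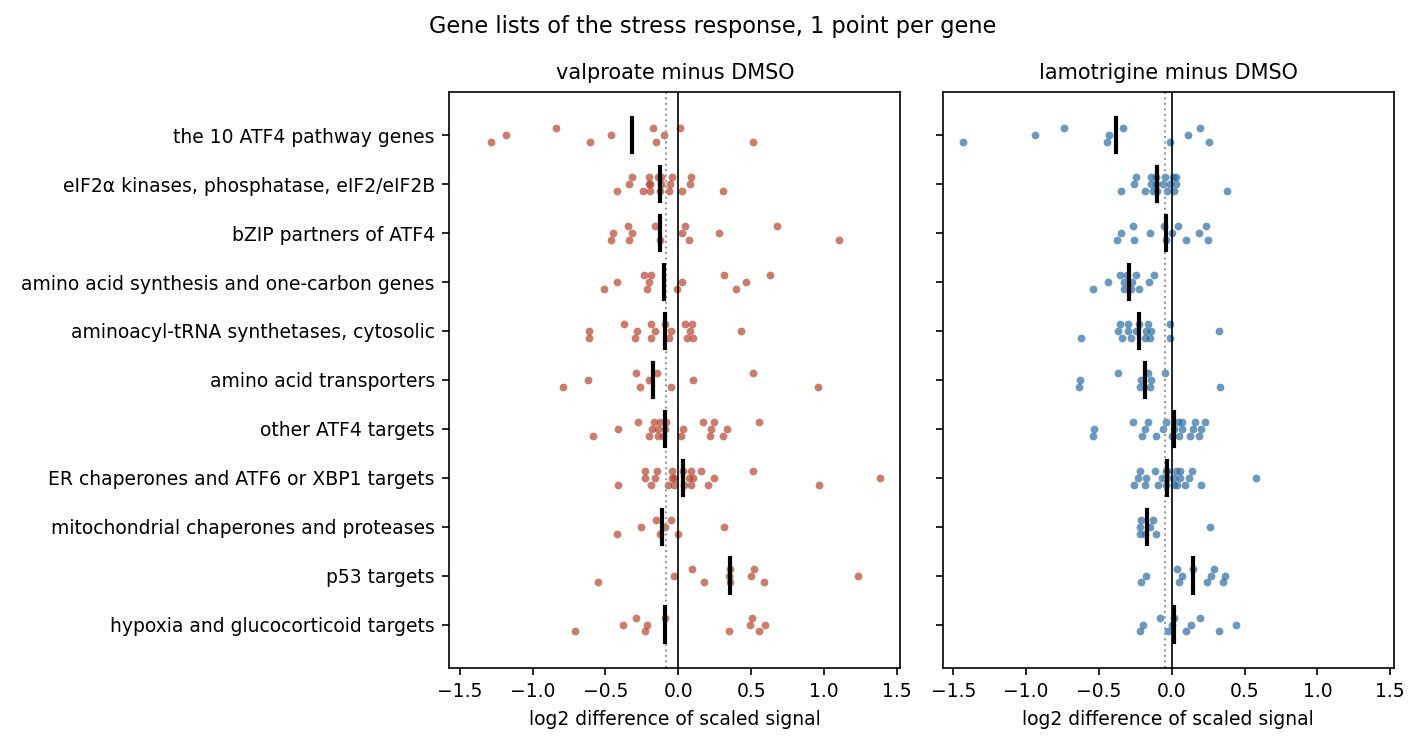
Log2 difference from DMSO (horizontal axis) of each gene detected on both arrays, by gene list, with valproate on the left and lamotrigine on the right. Black bars are list medians and the dotted line is the median of all genes. Of the pathway lists plotted, the 10 ATF4 pathway genes have the lowest median in both panels, -0.32 and -0.38, and they were chosen with such values known.

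The 8 mitochondrial chaperones and proteases had medians of -0.11 with valproate and -0.17 with lamotrigine, both positive with spike-in scaling and the first also with quantile normalization and the authors' deposited table. Among 11 p53 targets, relevant to Sesn2, the medians were 0.35 and 0.15. Pmaip1, a promoter of apoptosis, was 2.35-fold higher with valproate, and Ccng1 was at 0.59. With each drug 9 of the 11 were above 0, while Plk2 (-0.55 and -0.21) and Bax (-0.03 and -0.17) were below. A part of p53 in the level of Sesn2 was not tested. Among 11 targets of hypoxia or glucocorticoids, relevant to Ddit4, the medians were -0.09 and 0.02, the first positive with spike-in scaling. The glucose carrier Slc2a1 was 1.63-fold lower and Egln3 1.51-fold higher with valproate than with DMSO, and between the drugs Fkbp5 (0.69) and Bnip3 (0.64) were higher with valproate.

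Cell type markers also differed between the arrays, in a culture that the labels call primary cerebral cells. All 9 neuronal markers were detected, and their summed scaled signal was 22920 with valproate, 30862 with DMSO and 27046 with lamotrigine. Of these 6 were below 0 with valproate and 8 with lamotrigine. Tubb3 (3996, 7649 and 6399) and Stmn2 (9776, 12623 and 11174) made up most of the change in the sum, while Nefl, Snap25 and Slc17a7 were above DMSO with valproate. All 8 astrocyte markers were detected, with sums of 20774, 40874 and 40178. Most of the gap between valproate and the other arrays was Aldoc, at 10073, 25995 and 25605, and 7 of the 8 were below 0 with valproate and 5 with lamotrigine. The 9 oligodendrocyte lineage markers summed to 4136, 4606 and 4100, mostly Olig1 (2853, 2999 and 2755). That sum hides Gpr17, at 18.6 with valproate, 251 with DMSO and 178 with lamotrigine. Mag was detected with DMSO and lamotrigine but not with valproate. Of the 8 lineage markers detected with both valproate and DMSO, 5 were below 0, while Cspg4, Olig2 and Mbp were above. The 6 fibroblast and meningeal markers summed to 6379, 8491 and 7514. Pdgfra was counted both there and in the oligodendrocyte lineage. With valproate the median differences of the astrocyte (-0.50) and fibroblast (-0.48) markers were below that of the 10 genes. Of 7 microglial markers Cx3cr1, P2ry12 and C1qa were not well above background on any array, with sums of 1610, 1461 and 1595. Of 6 endothelial and mural markers Cldn5 was not, with sums of 854, 772 and 947. Pecam1 was not detected with DMSO, nor Rgs5 with lamotrigine. Kdr alone (762, 665 and 839) made up most of the endothelial and mural sums, and Itgam (1438, 1264 and 1398) most of the microglial ones. The part of cell makeup in the levels of Trib3, Atf5, Chac1 and Atf4 was not tested.

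The lower levels of Atf4, Atf5, Trib3 and Chac1 with both drugs kept their sign under the 7 alternative settings that change the value of any of the 10 genes. The other 3, which alter the detection filter or keep outlier spots, leave these genes as they are. Averaging detected probes or taking the dimmest changes only Atf4 and Psat1, the genes with 2 probes. These settings could not alter Atf5, Trib3 or Chac1. Quantile normalization and the authors' deposited table, itself quantile-normalized, gave nearly equal values, so they count as 1 check. Centring on the median of probes detected on all 3 arrays moved values very little. The size of the differences from DMSO depended on how the arrays were scaled. With spike-in scaling the median of all genes moved from -0.08 to 0.27 with valproate and from -0.05 to 0.16 with lamotrigine, and the 10 genes moved with it, to medians of 0.03 and -0.18. Relative to the median of all genes they were at -0.24 and -0.34 in both scalings. This could not change, since spike-in scaling adds the same amount to every gene of a comparison. Under that scaling Trib3 was at -0.94 with valproate and -1.23 with lamotrigine.

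**Figure D4:**
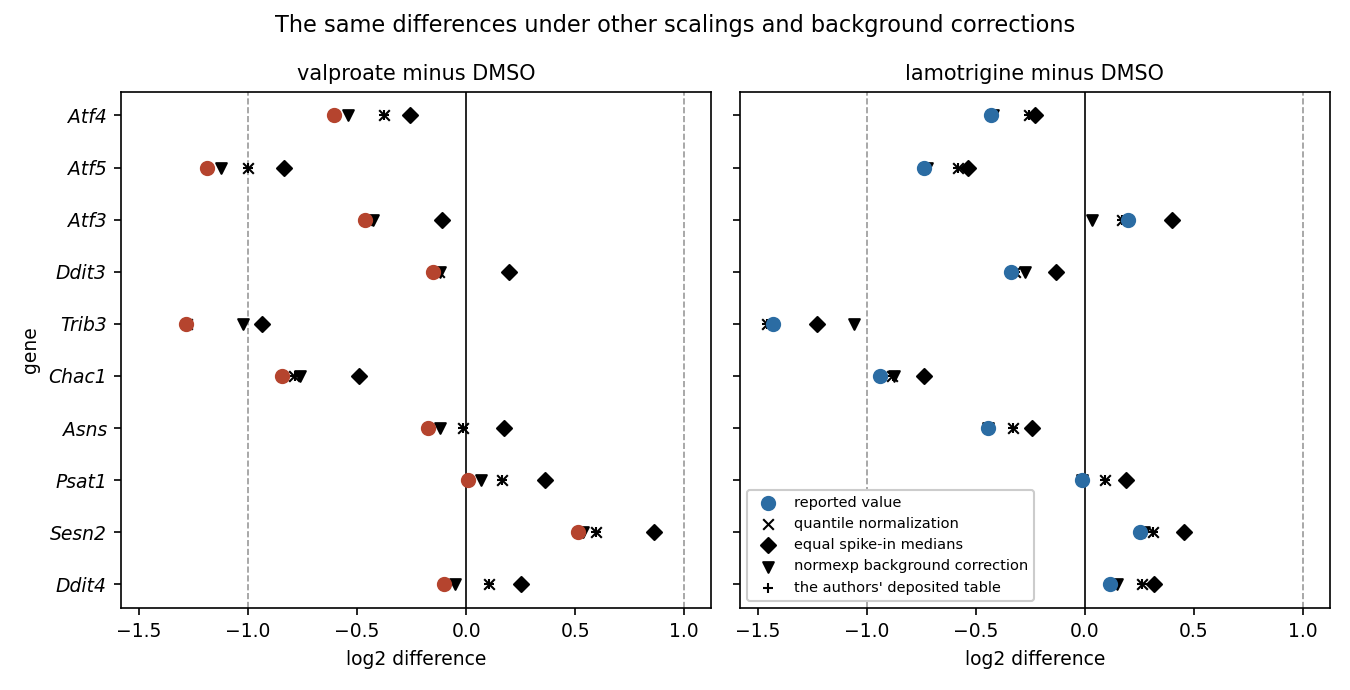
Log2 difference from DMSO (horizontal axis) of the 10 genes as reported (coloured) and with quantile normalization, equal spike-in medians, normexp background correction and the authors' deposited table (black symbols), with dashed lines at 2-fold. Spike-in scaling shifts every gene upward, and Trib3, Atf5, Chac1 and Atf4 stay below 0 in both panels.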

How the data were processed

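RNA of 3 cultures, 1 per treatment, was labelled with Cy3 per the labels' protocols and read with Feature Extraction 10.7.1.1 per the file headers. Per the file headers, the deposited intensity of a spot (the processed signal) had its background subtracted and was detrended on each array, without any scaling across arrays. A second deposited table holds quantile-normalized intensity values, as the equal distributions of its columns show, by steps not given in the sources used here. Probe coordinates are those of the files, on mm9.

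Levels are log2 of the processed signal minus the log2 of the 75th percentile over non-control spots. Outlier spots were left out, and spots of a probe were averaged. A probe was detected if most of its spots were well above background. Probes were joined to RefSeq genes by accession (27235), symbol (3581) or older symbol (565), and a gene took its probe with the highest mean level. Differences are counted over genes detected on both arrays, with 2-fold and 1.5-fold thresholds. A rule named the 10 members, the 4 kinases, up to 4 members of each list and comparison at least 1.5-fold apart, and the 3 nearest genes to each member 2-fold from DMSO. Genes outside this rule, such as Nupr1, Plk2, Bax, Phgdh and the cell type markers, were named by choice. Members and lists were chosen with earlier results of these data known. Alternatives changed scaling, background correction (normexp with an offset of 50, limma 3.58.1), source of values, detection, choice of probe, outlier spots and threshold. The code was tested on simulated data.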

Additional observations from a re-analysis of the deposited data

How the results depend on the processing

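No paired analysis was possible because each treatment has 1 array, and no array could be left out. Of the 10 alternatives 7 change values of the 10 genes, 162 values over the 3 comparisons. Of these 154 kept their sign, and the 8 that did not were differences from DMSO of Ddit3, Asns, Ddit4 and Psat1. Of 930 values of the 31 other list genes that the rule named, 897 kept it. With valproate the 2 genes at least 2-fold from DMSO became 1 with quantile normalization and 1 with the authors' deposited table (Trib3 in both, Atf5 falling just short of 2-fold), 0 with spike-in scaling and 4 at a threshold of 1.5-fold, and the median of the 10 genes became 0.031 with spike-in scaling. With lamotrigine the count of 1 became 3 at 1.5-fold, and the median of -0.38 became -0.29 with quantile normalization, -0.29 with the authors' deposited table and -0.18 with spike-in scaling. Between the drugs the count of 0 became 1 at 1.5-fold, and the median of 0.06 became 0.21 with spike-in scaling. Spike-in scaling adds the same amount to every gene of a comparison. It set the median of 6 of 10 spike-in probes, those with a signal over 100, equal between arrays, and the amount of spike-in RNA added to each sample is not given in the sources used here. Over all genes the 503 at least 2-fold from DMSO with valproate became 821 with spike-in scaling, 191 with normexp correction and 1957 without the detection filter, and the 23 with lamotrigine became 49, 4 and 1160. Signal over background is lowest for Atf3, the dimmest of the 10 genes, whose difference with lamotrigine of 0.20 became 0.03 with normexp correction.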
